A study of Rattus norvegicus with 15 samples.

Results

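The miR-181 family was followed through the first 14 days after sciatic nerve injury in the rat. Its members are the miRNAs that the array names rno-miR-181a, rno-miR-181b, rno-miR-181c, rno-miR-181d and rno-miR-181a* (written without the species prefix from here on), 5 of the 350 rat miRNAs on the array. The first 4 are guide arms, the strand of the hairpin that is mainly loaded into Argonaute. miR-181a* is the passenger arm of a miR-181a hairpin, the strand that is mostly discarded. All 5 were among the 231 miRNAs that could be tested, and the 4 guide arms were detected on all 15 arrays.

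Each array carried total RNA from the sciatic nerve of adult male rats. Normal nerve that had not been injured (day 0) and nerve taken 1, 4, 7 or 14 days after injury made 5 groups of 3 arrays. The injury is described in conflicting ways, as a resection with proximal tissue collected and as a crush with the damaged section collected, and the samples are named both as proximal stumps and as the injury site. No strain, transgene or drug is given, and nothing says that the arrays of a group came from separate animals, so p-values measure only the spread between these samples.

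MicroRNAs are short RNAs that guide Argonaute proteins to messenger RNAs, mostly through pairing of bases 2 to 8, the seed. Guide arms with the same seed can bind largely the same target sites. The miR-181 family is known best from lymphocytes, where miR-181a tunes T cell receptor signalling, and its members are also expressed in nervous tissue, muscle and vascular cells. The nerve contains Schwann cells, axons, fibroblasts, endothelium and, after injury, invading leukocytes. In such bulk tissue, fewer cells of a type and less RNA per cell cannot be told apart.

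The mature sequences show which members share a seed and how little else separates them. They are given 5′ to 3′ from RefSeq (build GRCr8), where all 5 names matched, with the seed in capitals.

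miR-181a: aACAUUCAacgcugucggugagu

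miR-181b: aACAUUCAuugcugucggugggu

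miR-181c: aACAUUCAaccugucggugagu

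miR-181d: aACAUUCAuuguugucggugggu

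miR-181a*: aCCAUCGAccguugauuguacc

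The 4 guide arms share the seed ACAUUCA, and among the 693 rat mature names in RefSeq no other name has it. The seed of miR-181a*, CCAUCGA, is held by 2 names, miR-181a-1-3p (the current name of miR-181a*) and miR-181c-3p. Counting positions from 1 at the 5′ end of the first-named miRNA, miR-181c is miR-181a with 1 base missing at position 11, and miR-181d differs from miR-181b by the single substitution C12U. miR-181b differs from miR-181a by A9U, C10U and A21G. By sequence the guide arms therefore fall into 2 pairs, a with c and b with d.

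By genome position they fall into other pairs. miR-181a is made from 2 loci, at chr13:52037081-52037103 (Mir181a-1) and chr3:43025601-43025623 (Mir181a2), both on the plus strand. miR-181b lies 182 bases after the first of these, at chr13:52037263-52037285 (Mir181b1), and a second miR-181b hairpin follows Mir181a2 at 1103 bases. miR-181c at chr19:40888314-40888335 and miR-181d at chr19:40888484-40888506 lie 170 bases apart. miR-181a* is at chr13:52037121-52037142, in the Mir181a-1 hairpin. Mir181a-1 overlaps a long non-coding RNA gene and is followed by Ptprc, which encodes the leukocyte protein CD45. Mir181a2 overlaps Nr6a1, which encodes an orphan nuclear receptor.

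Probes for different miRNAs bind with different strength, so levels were compared between days and never between miRNAs as amounts. The comparisons were for 1 miRNA or, for marker lists, for a summed level, in which the brightest members weigh most. Levels are given on a log2 scale on which 0 is the 75th percentile of that array. That percentile rests on the 164 miRNAs with a detection call on every array. Changes are differences of group means ± the standard error of limma's model, and a change was called where its adjusted p (Benjamini-Hochberg over all 231 miRNAs) was under 0.05. The array files hold no probe sequences, so how far a probe also binds the other members was not tested.

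One array stood apart from the rest. On day 14 replicate 3, 172 miRNAs were detected, against 200 to 239 on the others, its negative controls averaged an intensity of -8.54 against -1.03 to 1.19, and 5.67% of its spots were flagged as outliers against 2.66% to 4.17%. The levels of all 5 members on it lay between those of the other 2 day 14 arrays. The arrays lay on 5 slides: day 0, day 1 and day 4 each filled a slide of their own, so slide and day cannot be told apart there. Day 7 and day 14 replicates 1 and 2 shared a slide, and day 14 replicate 3 lay on a slide apart from all the others. The arrays were scanned on 4 dates. Day 0, day 1 and day 14 replicate 3 each had a date of their own, and all other arrays shared a date. Scan date and day therefore cannot be told apart in comparisons with day 0 or day 1.

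**Figure D1:**
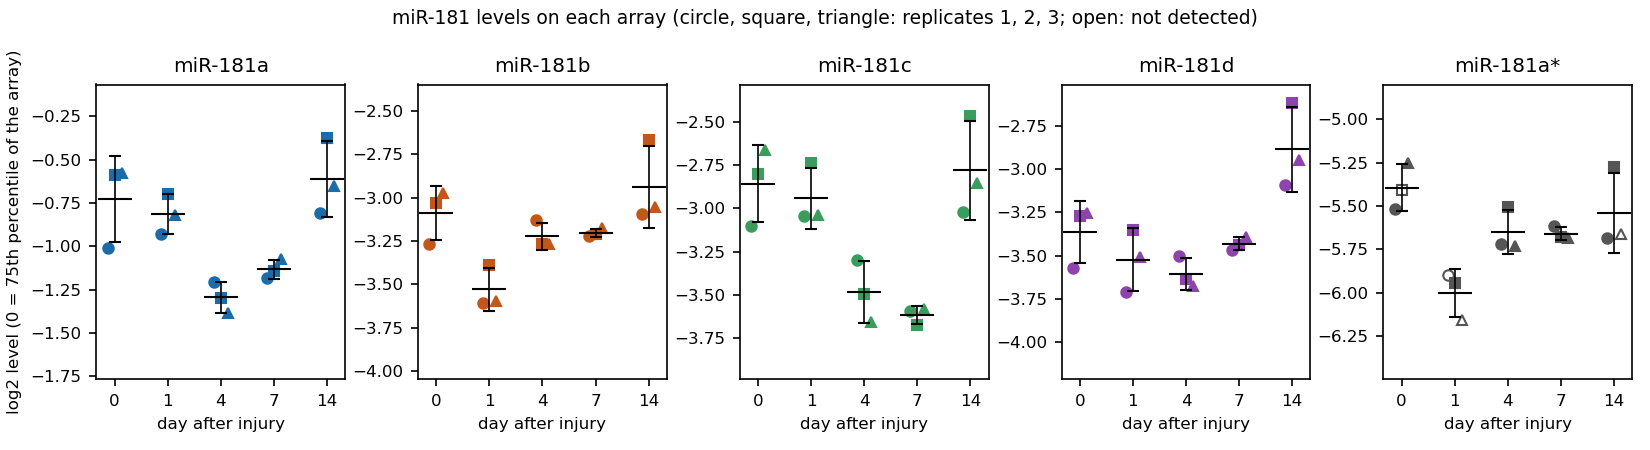
Level of each member on each array (log2, 0 is the array's 75th percentile) by day after injury. Points are arrays with open points not detected, horizontal bars are group means and error bars are SD (n = 3), and the level axes differ between panels. miR-181a and miR-181c were low on days 4 and 7 and high again on day 14, miR-181b was lowest on day 1, and miR-181d was highest on day 14.

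Between day 7 and day 14 the family moved upward. miR-181a, miR-181c and miR-181d rose, by 1.44-fold, 1.78-fold and 1.46-fold. miR-181b was 1.20-fold higher and miR-181a* 1.09-fold higher, and neither passed the test. No member fell. Of all 231 miRNAs tested, 4.76% were called higher and 9.09% lower, so 3 of 5 members called higher stands beside a background of 11 in 231. The median change was 0.52 over the members and -0.02 over all miRNAs.

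miR-181c had the largest of these rises. Its log2 level was -3.59, -3.67 and -3.58 on the day 7 arrays and -3.02, -2.47 and -2.85 on the day 14 arrays. Every day 14 array lay above every day 7 array. The change was 0.84 ± 0.15 with an adjusted p of 0.00439 in limma's test, the upward rank 3 among 231 miRNAs. miR-181a was read at intensities of 211 to 583 over the 15 arrays. Its level was -1.18, -1.14 and -1.07 on day 7 and -0.81, -0.38 and -0.65 on day 14, again with no overlap. It rose by 0.52 ± 0.13 (adjusted p = 0.0206 in limma's test, upward rank 10). miR-181d, the neighbour of miR-181c on chromosome 19, stood at -3.47, -3.44 and -3.39 on day 7 and at -3.09, -2.62 and -2.95 on day 14. These groups did not overlap either, and it rose by 0.55 ± 0.13 (adjusted p = 0.019 in limma's test, upward rank 9).

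miR-181b, the neighbour of miR-181a on chromosome 13, did not pass this test. Its level was -3.22, -3.21 and -3.17 on day 7 and -3.09, -2.67 and -3.05 on day 14. The groups did not overlap, but day 14 replicate 2 lay well above the other 2 arrays of that day. After scaling, that array had the highest day 14 level of all 5 members. Its 75th percentile was an intensity of 627, against 914 and 916 on the other 2. Before scaling, its miR-181b intensity was the lowest of that day, at 98.6 against 107 and 111. The change was 0.26 ± 0.12 (adjusted p = 0.157 in limma's test). With 4 of 5 members not overlapping and higher on day 14, the share over all miRNAs was 15.6%. The passenger arm miR-181a* was dim, with intensities of 7.46 to 18.1, and was detected on 3 of 3 day 7 arrays and 2 of 3 day 14 arrays. Its change was 0.12 ± 0.12 (adjusted p = 0.538 in limma's test).

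Within the slide that held both days, with day 14 replicate 3 absent, the changes were as large but the calls were lost. miR-181a changed by 0.54 (adjusted p = 0.0873), miR-181c by 0.87 (adjusted p = 0.0511), miR-181d by 0.58 (adjusted p = 0.0873), miR-181b by 0.32 (adjusted p = 0.226) and miR-181a* by 0.18 (adjusted p = 0.46) in limma's test on 5 arrays. Thus 0 of 5 members were called there, 3 of them with an unadjusted p under 0.05 (0.0116 for miR-181a, 0.00346 for miR-181c and 0.0116 for miR-181d), and over all 227 miRNAs tested 1 was called higher and 13 lower. With that array left out of the whole fit and the scaling miRNAs kept, miR-181a changed by 0.54 (adjusted p = 0.0501), miR-181c by 0.87 (adjusted p = 0.0116) and miR-181d by 0.58 (adjusted p = 0.039). The call for miR-181a was also lost without day 7 replicate 1 (adjusted p = 0.0747), day 7 replicate 2 (0.0692), day 14 replicate 2 (0.0628) and, with the scaling recomputed, day 14 replicate 3 (0.0514). The call for miR-181d was lost without day 7 replicate 1 (0.0709) and day 7 replicate 2 (0.0629), while miR-181c kept its call in limma's test whichever of the 15 arrays was left out.

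Against uninjured nerve fewer members were called on day 14. miR-181d was above normal nerve, at 1.39-fold, and the other guide arms were 1.05-fold to 1.11-fold higher without passing the test. Among all miRNAs, 16% were called higher and 50.6% lower on day 14, and 1 of 5 members was called higher and 0 of 5 lower. The median change was 0.11 over the members and -0.37 over all miRNAs.

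miR-181d had log2 levels of -3.57, -3.27 and -3.25 on day 0, all below its lowest day 14 level of -3.09. It rose by 0.48 ± 0.13 (adjusted p = 0.00593 in limma's test), and the rise was called whichever array was left out. miR-181a stood at -1.01, -0.59 and -0.58 on day 0, a range that the day 14 levels overlap. Its change was 0.11 ± 0.13 (adjusted p = 0.468). miR-181c, at -3.10, -2.80 and -2.66 on day 0, changed by 0.08 ± 0.15 (adjusted p = 0.680). miR-181b, at -3.27, -3.03 and -2.97 on day 0, changed by 0.15 ± 0.12 (adjusted p = 0.281). Both overlapped their day 14 levels, as did miR-181a*, which changed by -0.15 ± 0.12 (adjusted p = 0.308, all from limma's test). For miR-181a* that change was above 0 in 4 of 6 scalings, at up to 0.36. It was called lower without day 14 replicate 2 (-0.28, adjusted p = 0.0397) and with normexp (-0.20, adjusted p = 0.00792).

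**Figure D2:**
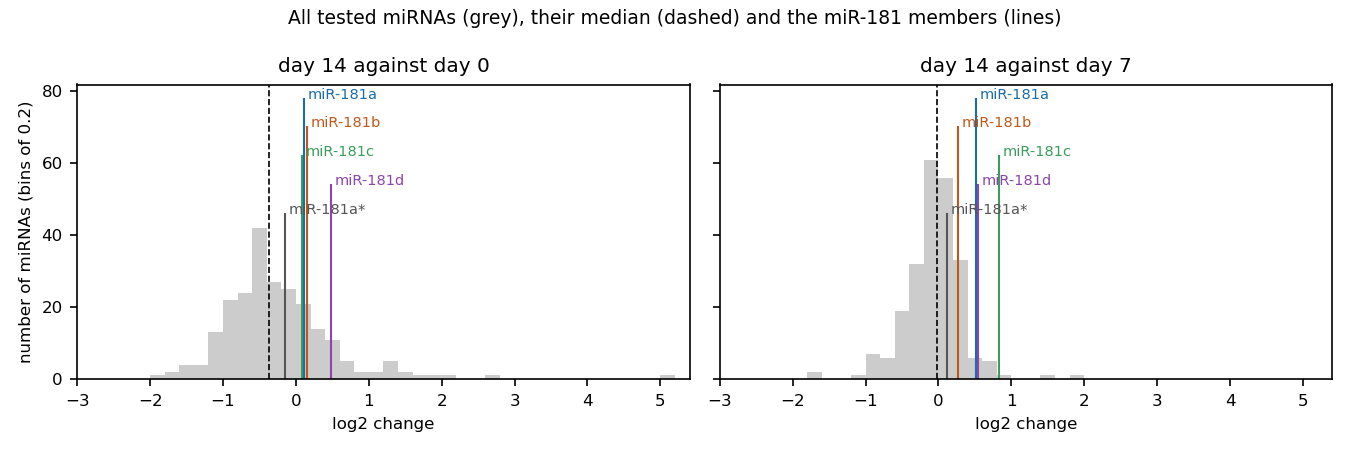
Distribution of the log2 change over the 231 tested miRNAs (grey, bins of 0.2), its median (dashed line) and each member (coloured lines) on day 14 against day 0 and against day 7. Against day 7, miR-181c, miR-181d and miR-181a lie in the upper tail, at 0.84, 0.55 and 0.52, and against day 0 miR-181d is the member farthest to the right, at 0.48.

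How many members lay above normal nerve on day 14 depended on how arrays were scaled. Measured from the median change of all miRNAs, which was -0.37 in the main scaling and 0.017 without scaling, the day 14 changes were 0.85 for miR-181d, 0.52 for miR-181b, 0.48 for miR-181a, 0.44 for miR-181c and 0.22 for miR-181a*. In 6 scalings, among them no scaling and the authors' own normalised values, the change of miR-181d against day 0 ran from 0.48 to 0.86 and was called higher in 6 of 6. miR-181c was called higher in 5 of the 6 and miR-181a and miR-181b in 3 each, and the changes of these 3 were above 0 throughout. With no scaling, 64 miRNAs were called higher and 42 lower on day 14 against day 0, where the main scaling gave 37 and 117.

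The rise from day 7 was less dependent on the scaling. Over the 6 scalings it ran from 0.76 to 1.12 for miR-181c, from 0.44 to 0.80 for miR-181a and from 0.47 to 0.82 for miR-181d, each called in 6 of 6. miR-181b was positive in 6 and called in 2. The upper ends come from leaving the arrays unscaled, where the median change of all miRNAs was 0.26 against -0.02 in the main scaling, and which gave 72 miRNAs higher and 10 lower against 11 and 21.

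**Figure D3:**
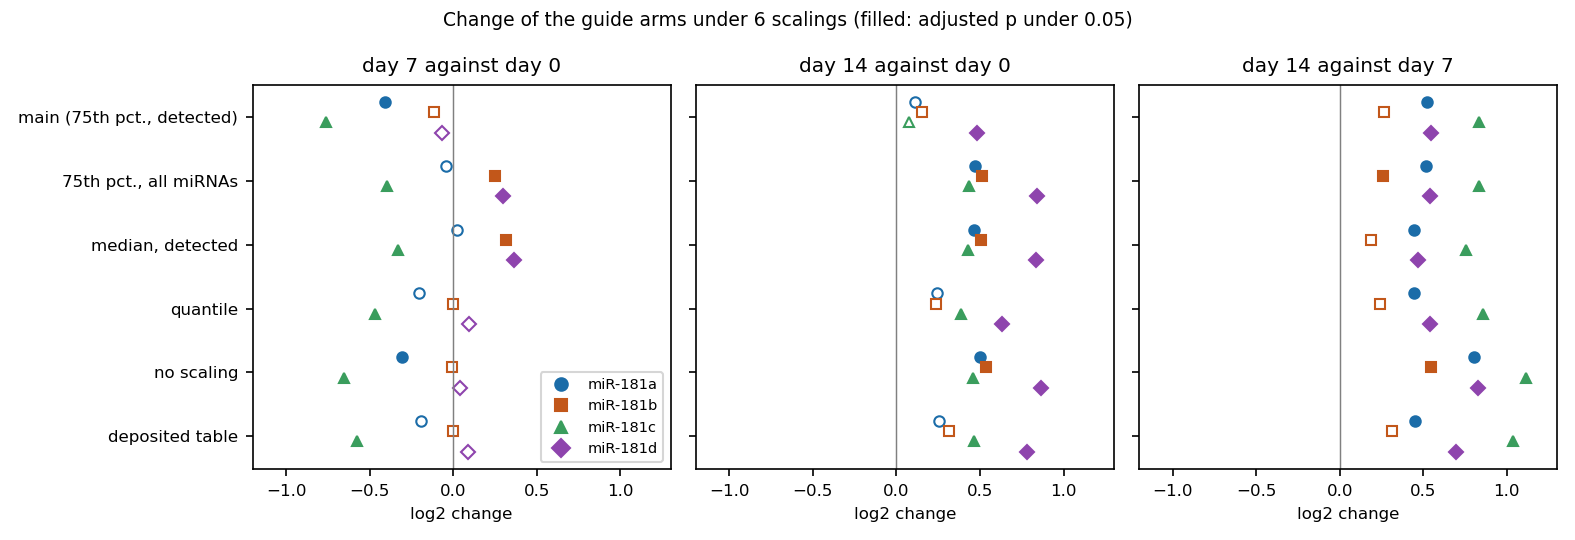
Log2 change of the 4 guide arms in 3 comparisons (panels) under 6 scalings (rows, where "detected" means the miRNAs detected on every array), with filled symbols where the adjusted p was under 0.05. On day 14 against day 7, miR-181a, miR-181c and miR-181d are filled in all 6 rows, and on day 14 against day 0 miR-181d is filled in all 6.

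How spots and probes were combined mattered more for miR-181d. Each member is read by 2 probes. The 2 probes of miR-181d had mean intensities of 43.5 and 86.9, and taken singly they rose by 0.57 and 0.43 from day 0 to day 14 and by 0.62 and 0.51 from day 7. With the brightest probe of every miRNA alone, the rise of miR-181d against day 0 was 0.34 (adjusted p = 0.0581) and against day 7 0.44 (adjusted p = 0.101), both short of the threshold. With a median over all spots, which mixes 2 probes of unequal brightness, its change against day 0 was -0.06. With the normexp background correction, whose offset of 50 compresses dim signals, it was 0.17 (adjusted p = 0.132), and 0.27 against day 7 (adjusted p = 0.113). The 2 probes of miR-181c rose by 0.78 and 0.92 from day 7 and those of miR-181a by 0.50 and 0.53, so the probes of each of these rising members moved the same way. With the brightest probe alone the rise of miR-181a was 0.46 (adjusted p = 0.118 in limma's test). With the median over spots, miR-181a rose by 0.30 and miR-181c by 0.65 from day 7 (adjusted p = 0.623 and 0.0881 in limma's test). With that median 0 members were called on day 14 against day 7, so the call for miR-181d was lost too.

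The late rise followed a fall. On day 4 miR-181a and miR-181c fell against normal nerve, by 1.48-fold and 1.54-fold, and the other 3 members did not pass the test. Over all miRNAs 45.5% were called lower and 20.3% higher, so 2 of 5 members called lower is close to the background. miR-181a stood at -1.21, -1.30 and -1.38 on day 4, below every day 0 array, a change of -0.57 ± 0.13 (adjusted p = 0.00189 in limma's test). miR-181c stood at -3.30, -3.49 and -3.66, also below every day 0 array, a change of -0.63 ± 0.15 (adjusted p = 0.00291). Over all miRNAs, 51.9% had every day 4 array below every day 0 array. miR-181b (-0.13 ± 0.12), miR-181d (-0.24 ± 0.13) and miR-181a* (-0.26 ± 0.12) had adjusted p of 0.345, 0.130 and 0.078. Without day 0 replicate 1, miR-181d was called lower too (-0.34, adjusted p = 0.0433), as was miR-181a* (-0.32), which was also called without day 14 replicate 2 (-0.26, adjusted p = 0.0354). Measured from the median of all miRNAs, -0.26, the falls of miR-181a and miR-181c were -0.31 and -0.37. Both were lower in 6 of 6 scalings and called in 5, while the sign for miR-181b, miR-181d and miR-181a* depended on the scaling. With median scaling, miR-181b (0.36, adjusted p = 0.00217) and miR-181d (0.26, adjusted p = 0.0346) were called higher on day 4 in limma's test.

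On day 7 miR-181c was below normal nerve in 6 of 6 scalings. It had changed by -0.76 ± 0.15 (adjusted p = 0.000734 in limma's test), 1.69-fold lower, and by -0.76 to -0.33 over the 6 scalings, called in 6. miR-181a had changed by -0.41 ± 0.13 (adjusted p = 0.0156). That call held in 2 of 6 scalings and the value reached 0.02 with median scaling. It was also lost without day 0 replicate 3 (-0.33), day 7 replicate 1 (-0.38) and day 14 replicate 3 (-0.25). Over all miRNAs 45.5% were called lower and 17.3% higher on day 7, and 54.1% had no overlap and were lower, as had 3 of 5 members (miR-181a, miR-181c and miR-181a*). miR-181b (-0.11 ± 0.12), miR-181d (-0.07 ± 0.13) and miR-181a* (-0.27 ± 0.12) were not called (adjusted p = 0.416, 0.663 and 0.0732), and the signs of all 3 turned with the scaling. miR-181b and miR-181d were called higher in 2 of 6 scalings each, at up to 0.32 and 0.37, and miR-181a* was above 0 in 3 of 6. miR-181a* was called lower without day 0 replicate 1 (-0.33, adjusted p = 0.0467), day 0 replicate 2 (-0.33, adjusted p = 0.0497) or day 14 replicate 2 (-0.27, adjusted p = 0.0322). Between day 4 and day 7 0 of 5 members were called by limma, with changes of -0.13 to 0.17 adjusted p of 0.496 to 0.974 and 0 unadjusted p under 0.05 (the lowest was 0.216), and of all miRNAs 1.3% were called higher and 4.76% lower. miR-181a and miR-181d had no overlap and were higher on day 7, as were 17.7% of all miRNAs.

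Day 1 separated the members differently. miR-181b and miR-181a* fell against normal nerve and the other 3 members did not pass the test. Over all miRNAs 43.7% were called lower and 16.9% higher, so 2 of 5 members called lower is close to the background. Measured from the median of all miRNAs, -0.26, the changes were -0.18 for miR-181b and -0.35 for miR-181a*. miR-181b stood at -3.61, -3.39 and -3.59, below every day 0 array, as were 38.1% of all miRNAs and 2 of 5 members. The change was -0.44 ± 0.12 (adjusted p = 0.00622 in limma's test). It was lower in 6 of 6 scalings and called in 4. Without day 14 replicate 3, which changes the miRNAs that set the scaling, it was -0.23 and not called. miR-181a* changed by -0.61 ± 0.12 (adjusted p = 0.000877), but was detected on 1 of 3 day 1 arrays, so its day 1 level is near background. miR-181a (-0.09 ± 0.13), miR-181c (-0.08 ± 0.15) and miR-181d (-0.16 ± 0.13) had adjusted p of 0.566, 0.639 and 0.326.

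Between day 1 and day 4 the guide arms moved in opposite directions. miR-181a fell by 0.48 ± 0.13 (adjusted p = 0.00916 in limma's test) and miR-181c fell by 0.54 ± 0.15 (adjusted p = 0.0113), and both were called lower in 6 of 6 scalings. miR-181b rose by 0.31 ± 0.12 (adjusted p = 0.0451) and miR-181a* by 0.35 ± 0.12 (adjusted p = 0.03), above 0 in 6 of 6 scalings and called in 4 and 5. All 4 had groups that did not overlap, where 28.6% of all miRNAs had no overlap and were higher and 32% lower. miR-181d changed by -0.08 ± 0.13 (adjusted p = 0.617). Over all miRNAs 27.7% were called higher and 23.8% lower. The call of miR-181b is near the threshold and was lost on leaving out any array of day 4 or day 7, day 0 replicate 2, day 1 replicate 1 or 3, or day 14 replicate 3, with changes of 0.24 to 0.33. The call of miR-181a* was lost without day 1 replicate 3 (0.27), day 4 replicate 2 (0.28) or day 14 replicate 3 (0.28), and that of miR-181c without day 4 replicate 3 (-0.45, adjusted p = 0.0550).

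Set against day 1, day 14 was higher for miR-181b (0.59 ± 0.12, adjusted p = 0.00113 in limma's test), miR-181d (0.64 ± 0.13, adjusted p = 0.00142) and miR-181a* (0.46 ± 0.12, adjusted p = 0.00595). miR-181a changed by 0.20 ± 0.13 and miR-181c by 0.16 ± 0.15 (adjusted p = 0.202 and 0.389). Thus 3 of 5 members were called higher, where 24.2% of all miRNAs were called higher and 31.2% lower. The same 3 had groups that did not overlap, as had 22.5% of all miRNAs in that direction. miR-181b and miR-181d were called in 6 of 6 scalings and miR-181a* in 5. The call for miR-181a* was lost without day 14 replicate 3 (0.40, adjusted p = 0.0521). With normexp, miR-181b (0.15, adjusted p = 0.150) and miR-181d (0.19, adjusted p = 0.0951) were not called and miR-181a* was called lower (-0.17, adjusted p = 0.0228 in limma's test).

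In order of mean level on the main scaling, day 14 and day 0 were highest for all 5 members. For miR-181a the order was day 14 (-0.61 ± 0.22, SD, n = 3), day 0 (-0.73 ± 0.25), day 1 (-0.81 ± 0.12), day 7 (-1.13 ± 0.06) and day 4 (-1.30 ± 0.09). The first 3 overlapped one another in sequence, whereas day 1 and day 7, and day 7 and day 4, did not. For miR-181c the order was day 14 (-2.78 ± 0.29), day 0 (-2.86 ± 0.22), day 1 (-2.94 ± 0.18), day 4 (-3.48 ± 0.18) and day 7 (-3.62 ± 0.05), with a gap without overlap only between day 1 and day 4. For miR-181b it was day 14 (-2.94 ± 0.23), day 0 (-3.09 ± 0.16), day 7 (-3.20 ± 0.02), day 4 (-3.22 ± 0.08) and day 1 (-3.53 ± 0.12), with the only such gap above day 1. For miR-181d it was day 14 (-2.89 ± 0.24), day 0 (-3.37 ± 0.18), day 7 (-3.43 ± 0.04), day 1 (-3.52 ± 0.18) and day 4 (-3.60 ± 0.09), with the only gap below day 14. miR-181a* stood at -5.39 ± 0.13 on day 0, -5.54 ± 0.23 on day 14, -5.65 ± 0.13 on day 4, -5.66 ± 0.04 on day 7 and -6.00 ± 0.14 on day 1. Over all 5 days the F test called 5 of 5 members, with adjusted p from 0.00043 (miR-181c) to 0.00503 (miR-181b), where it called 86.1% of all miRNAs.

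The difference of 2 members on the same array does not depend on how that array is scaled, though it can depend on the background correction. Its size gives no ratio of amounts, since the probes differ, but its change between days shows that members moved unequally. In a permutation test of the F statistic over the 5 days, 7 of 7 differences changed, with p adjusted over the 7 of 3.5e-05 to 0.00826. Pairs of other miRNAs were not tested, so this count has no background share beside it. Among single miRNAs, limma's F test over the 5 days called 86.1%, so unequal change need not be particular to this family. The smallest p that 100000 resamples can give is 1e-05. For miR-181a minus miR-181b and miR-181b minus miR-181c the permutation p was at that limit or at the next step above it. Both cases were recorded as 1e-05, and the adjusted p of 3.5e-05 rests on that value.

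miR-181a minus miR-181b, the pair that shares a cluster on chromosome 13, had a mean of 2.36 on day 0, 2.71 on day 1, 1.93 on day 4, 2.07 on day 7 and 2.33 on day 14. The gap widened on day 1, narrowed by day 4 and was back by day 14. miR-181c minus miR-181d, the cluster on chromosome 19, went from 0.51 on day 0 and 0.58 on day 1 to 0.12, -0.18 and 0.11 on days 4, 7 and 14. It was thus lowest on day 7 and on day 14 still smaller than on day 0. As the probes differ, a value below 0 does not show which member was the more abundant. miR-181b minus miR-181d was 0.28, -0.01, 0.38, 0.23 and -0.05 on days 0, 1, 4, 7 and 14. miR-181a minus miR-181c was steadier, at 2.13, 2.13, 2.19 and 2.17 on days 0, 1, 4 and 14, with 2.48 on day 7.

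The other 3 differences complete the set. miR-181b minus miR-181c was -0.23, -0.59, 0.26, 0.41 and -0.16 over the 5 days, rising after day 1 and falling after day 7. miR-181a minus miR-181d fell from 2.64 and 2.71 on days 0 and 1 to 2.31, 2.30 and 2.27. miR-181a minus its passenger arm was 4.67, 5.19, 4.36, 4.53 and 4.93, where 4 of the 15 values rest on an array without a detection call for miR-181a*. Between single days, 3 arrays against 3 cannot reach an exact permutation p below 0.1. On day 14 against day 7 that value was reached for 6 of 7 differences, and miR-181a minus miR-181d gave an exact p of 0.5. The change of miR-181a minus miR-181c between these days was -0.31, but 0.06 with the normexp correction. It was not alone: most of the day 14 changes recomputed for these differences with normexp, 12 of them, moved by more than the spread between arrays.

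**Figure D4:**
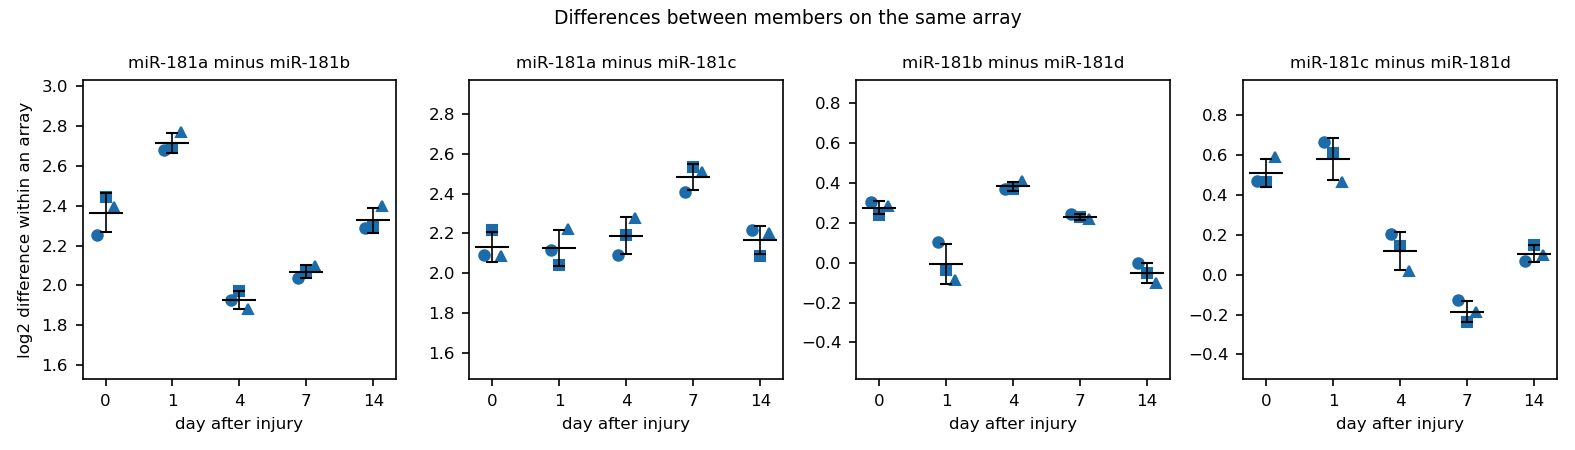
Difference of 2 log2 levels on the same array by day after injury for 4 pairs of guide arms. Points are arrays, horizontal bars are means and error bars are SD (n = 3), and the axes differ between panels but span the same range. miR-181a minus miR-181b moves from 2.71 on day 1 to 1.93 on day 4, and miR-181c minus miR-181d is lowest on day 7.

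Over the 15 arrays, which share their scaling and their days, Pearson's r between members was highest for miR-181a with miR-181c (0.938), then miR-181b with miR-181a* (0.836) and miR-181b with miR-181d (0.794). For the guide arms that are cluster partners it was 0.451 (miR-181a with miR-181b) and 0.655 (miR-181c with miR-181d). For the 2 arms of the Mir181a-1 hairpin, miR-181a and miR-181a*, it was 0.290. Among guide arms, the 2 pairs closest in sequence thus had higher r than the 2 cluster pairs. This order did not hold once miR-181a* was counted. miR-181b and miR-181a* also share the chromosome 13 cluster, and their r was above that of miR-181b with miR-181d. miR-181a with miR-181d, a pair of neither kind, had an r of 0.777. Whether binding of 1 member to the other's probe has a part in these values was not tested.

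Among miRNAs outside the family, those with the most similar profile over the 15 arrays are given as a description with no test. For miR-181a they were miR-30e (r = 0.932), miR-20b-5p (0.897) and miR-23b (0.877), and for miR-181c miR-30e (0.918), miR-20b-5p (0.905) and miR-30a (0.896). For miR-181b they were miR-542-5p (0.888), miR-130a (0.854) and miR-322* (0.831), and for miR-181d miR-140 (0.860), miR-205 (0.800) and miR-497 (0.796). miR-30e, common to the first 2 members, changed by -0.45 ± 0.10 by day 7 (adjusted p = 0.00168) and by 0.38 ± 0.10 from day 7 to day 14 (adjusted p = 0.0258, both in limma's test), and was back at -0.07 ± 0.10 on day 14.

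Marker miRNAs of the cells the samples could hold moved over the same days. The lists are described by counts and medians, where 16% of all miRNAs were called higher and 50.6% lower on day 14 against day 0. Of 5 leukocyte miRNAs tested, 3 rose and 1 fell, with miR-142-3p up by 1.28 ± 0.13 and miR-142-5p by 1.20 ± 0.14. Their summed level, in multiples of the array's 75th percentile, was 1.62 to 1.92 on day 0, 3.17 to 4.26 on day 1, 2.90 to 3.20 on day 7 and 2.20 to 2.81 on day 14. It was thus highest on day 1, and the median change of the 5 from day 7 to day 14 was -0.11.

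Of 4 miRNAs of myelinating glia tested, 4 fell on day 14 against day 0, with log2 changes of -1.75 ± 0.17 for miR-138 and -0.79 ± 0.16 for miR-338. Their summed level was 16.9 to 25.9 on day 0, 11.1 to 14.7 on day 1, 8.74 to 10.3 on day 4, 8.91 to 9.80 on day 7 and 10.3 to 13.9 on day 14. It was lowest on days 4 and 7, when miR-181a and miR-181c were low. On day 1 it was already below day 0, while miR-181a and miR-181c had changed by only -0.09 and -0.08. The fifth, miR-219-5p, was detected on 2 of 15 arrays. Of 6 neuronal miRNAs tested, 5 fell, with changes of -1.06 ± 0.14 for miR-218 and -0.98 ± 0.13 for miR-9*. Their summed level was 1.72 to 2.33 on day 0, 1.05 to 1.12 on day 7 and 0.94 to 1.13 on day 14, and miR-129 and miR-153 were detected on 0 arrays. Both endothelial miRNAs fell, with changes of -0.68 ± 0.10 for miR-126* and -0.41 ± 0.10 for miR-126, and a summed level of 3.16 to 3.45 on day 0, 2.77 to 2.96 on day 7 and 2.26 to 2.88 on day 14. The part of any of these in the miR-181 levels was not tested.

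Skeletal muscle miRNAs varied most between arrays of 1 group. Their summed level was 0.74 to 16.3 on day 0, 1.66 to 3.96 on day 1, 0.45 to 0.56 on day 4, 0.27 to 0.85 on day 7 and 0.88 to 2.23 on day 14, low on the same days as miR-181a and miR-181c. Array by array the order differed between days. The day 0 array at 16.3 had the lowest levels of miR-181a, miR-181b, miR-181c and miR-181d of that day. The day 14 array at 0.88 (replicate 2), the lowest of that day, had the highest levels of all 5 members after scaling. That order came with the scaling. Before it, the same array had the lowest day 14 intensity of miR-181a (483 against 522 and 583), miR-181b, miR-181d and miR-181a*, though not of miR-181c. The day 1 array at 1.66, also the lowest of its day, had the highest levels of the guide arms. On the other 2 injured days it went the other way. The day 4 array at 0.56, the highest of that day, had the highest levels of the guide arms. The day 7 array at 0.27, the lowest of that day, had the lowest levels of miR-181a, miR-181b and miR-181d. The part of muscle in the miR-181 levels was not tested. On day 14 against day 0, 1 of 5 muscle miRNAs fell (miR-499, -1.51 ± 0.18) and miR-133a had a change of -0.71 ± 0.72. The list of smooth muscle and fibroblast miRNAs had 2 members higher and 2 lower of 5, the lower ones being miR-145 (-0.76 ± 0.11) and miR-143 (-0.65 ± 0.10). Its summed level was 9.97 to 11.4 on day 0, 10.0 to 10.8 on day 7 and 9.73 to 10.2 on day 14. Of 4 miRNAs inducible by inflammatory signalling 3 rose, miR-21 by 2.68 ± 0.12 and miR-132 by 1.82 ± 0.11, with a summed level of 4.97 to 5.91 on day 0, 38.0 to 40.8 on day 7 and 26.2 to 32.1 on day 14. From day 7 to day 14, 1 of the 4 rose and 1 fell.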

How the data were processed

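Scanner files of 15 single-colour Agilent miRNA arrays were used. Per the file headers, Agilent Feature Extraction 10.7.3.1 made the deposited intensity values, which are background-subtracted per spot and not scaled between arrays. The authors also deposited a table of log2 values. The log2 scale was recognised because each column tracked the log2 total signal of its array, and their column median is 4.1158, except for day 14 replicate 3 with 0.8341. The normalisation of that table is not given in the sources used here, and it served as an alternative.

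Control and outlier spots were left out, and intensities were averaged over spots, then over probes. Signals were scaled to the 75th percentile of each array over the 164 miRNAs detected throughout, floored at 0.00362 and log2-transformed. The 231 miRNAs detected on all 3 arrays of a group were fitted with limma 3.58.1 (R 4.3.3), 1 model of 5 group means, two-sided, with Benjamini-Hochberg adjustment within each comparison. Comparisons with day 0 share its 3 arrays. The limma step was tested on simulated data. Tables were made with Python 3.11.15, pandas 2.3.3, numpy 2.4.6 and scipy 1.17.1, and figures with matplotlib 3.10.9.

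The text names the 5 members, per guide arm the 3 other miRNAs most alike by Pearson's r, and up to 2 of each marker list with the smallest adjusted p on day 14 against day 0; undetected markers are named besides. The members and lists were chosen with earlier results of these data known. The alternatives were other scalings, background correction, value sources, filters, floors, spot and probe averaging, blocks and left-out arrays. Normexp used the median spot signal in place of the planned mean. The number of arrays, 3 per group, limits the precision.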

Additional observations from a re-analysis of the deposited data

Results flagged for a closer look

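In 2 comparisons between consecutive times, members changed from one time to the next by limma's test, which is a direct test of the difference between 2 injured groups. From day 1 to day 4, miR-181a changed by -0.48, miR-181c by -0.54, miR-181b by 0.31 and miR-181a* by 0.35 on the log2 scale. From day 7 to day 14, miR-181a changed by 0.52, miR-181c by 0.84 and miR-181d by 0.55. With 3 arrays per group, no formal test for a single outlying array was applied.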

How the results depend on the processing

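Precision rests on 3 arrays per group, and miR-181a* was near background. Of 1314 member changes recomputed under alternatives, 1117 kept direction and side of the threshold, 83 turned sign, 72 lost and 42 gained a call. A floor 4 times as high changed no call. Slide as a random block changed none either, with a fitted correlation within slides of -0.0457. As day 0, day 1 and day 4 each filled a slide, that block cannot separate slide from day in comparisons with them. Nothing says whether replicate numbers pair arrays. Correlations of deviations from the group means had a median r of -0.0516 for same-number pairs, from -0.782 to 0.594, and 8 of 30 exceeded 0.1. Such values cannot settle whether the numbers pair arrays. With the replicate number as a block the members called stayed 2, 2, 2 and 1 on days 1, 4, 7 and 14 against day 0. Where a value below has no stated reason, the cause was not tested.

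Members called higher and lower differed as follows from the main analysis. Day 1 against day 0 (0 higher and 2 lower) gave 1 lower with median scaling, the software's total signal, miRNAs detected on all arrays only (which leaves out miR-181a*), the median over spots or only the groups compared, 0 with normexp or the deposited table, and 3 lower with no scaling. Day 4 against day 0 (0 higher and 2 lower) turned to 2 higher and 0 lower with median scaling, and gave 4 lower with quantile normalisation, 5 with no scaling, 3 with the deposited table and 1 with the median over spots. Day 7 against day 0 (0 higher and 2 lower) gave 2 higher and 1 lower with the percentile over all miRNAs or median scaling, 3 lower with normexp or only the groups compared, and 1 lower with quantile normalisation, the deposited table or the median over spots. Day 14 against day 0 (1 higher and 0 lower) gave 4 higher with the percentile over all miRNAs, median scaling or no scaling, 2 higher with quantile normalisation or the deposited table, 0 with the median over spots or the brightest probe, and 0 higher and 1 lower with normexp. Day 4 against day 1 (2 higher and 2 lower) gave 1 and 3 with quantile normalisation, 0 and 3 with the deposited table, 0 and 2 with normexp, 0 and 1 with the median over spots, 1 and 0 with the brightest probe, and 1 and 2 with the total signal, no filter, miRNAs detected on all arrays only, scan date as a block or the trended robust fit. Day 7 against day 4 (0 and 0) gave 1 higher with quantile normalisation and 2 higher with no scaling. Day 14 against day 7 (3 higher and 0 lower) gave 5 higher with no scaling, 4 with the percentile over all miRNAs, 2 with normexp or without day 14 replicate 3 on the same scaling miRNAs, 1 with the brightest probe, and 0 with the median over spots or within the slide. Day 14 against day 1 (3 higher and 0 lower) gave 5 higher with the percentile over all miRNAs or no scaling, 4 with quantile normalisation, 2 with the total signal, the brightest probe, miRNAs detected on all arrays only or only the groups compared, 1 higher with the median over spots, and 0 higher and 1 lower with normexp. With 1 array left out, the counts in either direction ran from 1 to 2 (day 1), 2 to 4 (day 4), 1 to 3 (day 7) and 1 to 2 (day 14) against day 0, from 2 to 4 on day 4 against day 1 and from 1 to 3 on day 14 against day 7. Of the 7 within-array differences, 7 were called in the main analysis and 6 with the total signal or the deposited table.

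Signs of log2 changes turned as follows, with the 2 days compared in parentheses. With the percentile over all miRNAs the values were miR-181a 0.085 (1 against 0), miR-181b 0.18 (4 against 0) and 0.25 (7 against 0), miR-181c 0.091 (1 against 0), miR-181d 0.018 (1 against 0), 0.076 (4 against 0), 0.30 (7 against 0) and 0.057 (4 against 1), miR-181a* 0.055 (4 against 0), 0.096 (7 against 0), 0.21 (14 against 0) and 0.041 (7 against 4). With median scaling the values were miR-181a 0.23 (1 against 0) and 0.023 (7 against 0), miR-181b 0.36 (4 against 0), 0.32 (7 against 0) and -0.044 (7 against 4), miR-181c 0.24 (1 against 0), miR-181d 0.17 (1 against 0), 0.26 (4 against 0), 0.37 (7 against 0) and 0.089 (4 against 1), miR-181a* 0.24 (4 against 0), 0.16 (7 against 0) and 0.21 (14 against 0). With quantile normalisation the values were miR-181a 0.089 (1 against 0), miR-181c 0.11 (1 against 0) and 0.067 (7 against 4), miR-181d 0.050 (1 against 0) and 0.092 (7 against 0), miR-181a* 0.042 (7 against 4). With no scaling the values were miR-181c 0.12 (7 against 4), miR-181d 0.038 (7 against 0), miR-181a* 0.24 (14 against 0) and 0.25 (7 against 4). With the deposited table the values were miR-181a 0.13 (1 against 0), miR-181c 0.17 (1 against 0) and 0.066 (7 against 4), miR-181d 0.071 (1 against 0) and 0.086 (7 against 0), miR-181a* 0.54 (4 against 0), 0.51 (7 against 0), 0.36 (14 against 0) and -0.15 (14 against 7). With the total signal the values were miR-181a* 0.51 (4 against 0), 0.20 (7 against 0), 0.19 (14 against 0) and -0.0099 (14 against 7). With normexp the values were miR-181b -0.017 (14 against 0) and -0.049 (7 against 4), miR-181c -0.054 (14 against 0) and -0.046 (14 against 1), miR-181d -0.012 (7 against 4), miR-181a* -0.0028 (4 against 1), -0.040 (14 against 7) and -0.17 (14 against 1). With the median over spots the values were miR-181a 0.14 (1 against 0) and -0.072 (14 against 1), miR-181c 0.075 (1 against 0), miR-181d -0.055 (14 against 0), miR-181a* 0.031 (7 against 4) and -0.023 (14 against 7). With the brightest probe the values were miR-181d 0.027 (4 against 1).

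With 1 array left out, the following changes crossed 0: miR-181a from -0.23 to 0.12 (1 against 0) and from -0.030 to 0.23 (14 against 0), miR-181b from -0.22 to 0.016 (4 against 0), from -0.20 to 0.047 (7 against 0) and from -0.0041 to 0.065 (7 against 4), miR-181c from -0.21 to 0.13 (1 against 0) and from -0.081 to 0.21 (14 against 0), miR-181d from -0.26 to 0.055 (1 against 0), from -0.17 to 0.094 (7 against 0) and from -0.18 to 0.0049 (4 against 1), miR-181a* from -0.28 to 0.0081 (14 against 0), from -0.047 to 0.065 (7 against 4) and from -0.013 to 0.19 (14 against 7).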
